A study of Mus musculus with 12 samples.

Results

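The replication-dependent histone genes of the mouse genome were followed through 12 RNA-seq libraries of hematopoietic stem and progenitor cells (HSPC) that had received miR184, miR499 or a control miRNA. The members were the rows of both deposited expression tables whose gene name carried the prefix Hist1h, Hist2h, Hist3h or Hist4h and whose value was above 0 in at least 3 of the 12 libraries. Of the 70 such names among 48709 rows, 66 met the rule, namely 5 H1, 19 H2a, 17 H2b, 12 H3 and 13 H4 genes. By name, 53 members belonged to cluster 1, 10 to cluster 2, 2 to cluster 3 and 1 (Hist4h4) to cluster 4. On GRCm38, the assembly of mm10, these lay on chromosomes 13, 3, 11 and 6. Of the cluster 1 names, 52 lay within chr13:21715763-23934851. Hist1h2al, annotated as a processed pseudogene and counted among the H2a genes, lay apart at chr13:51202727-51203065. The testis genes Hist1h1t and Hist1h2ba were among the names left out, with a value above 0 in 1 and in 0 libraries. Hist1h2aj and the pseudogene Hist3h2bb-ps were at 0 throughout. Just inside the rule stood Hist2h2aa2, above 0 in 3 libraries, and Hist1h2aa, above 0 in 4.

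Replication-dependent histone genes encode the core histones H2A, H2B, H3 and H4 and the linker histone H1, which package newly made DNA during S phase. Their transcripts have no introns and end in a stem-loop in place of a poly(A) tail, and the stem-loop binding protein Slbp controls their processing, translation and decay. Transcription is driven through Npat, a substrate of cyclin E with Cdk2, and messages are lost quickly when replication stops, so that their level is widely used as a sign of cells in S phase. Near-identical copies of each core histone gene lie in clusters, many of them as divergent H2a and H2b pairs.

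All 12 libraries came from wild-type mouse bone marrow cells, labelled as HSPC, in which RNA was taken from sorted cells 2 days after transfection. They comprised 3 libraries with miR184 (miR184 1 to 3) and 3 with miR499 (miR499 1 to 3), each beside 3 libraries with a control miRNA in its own table. The controls in the miR184 table are numbered 1 to 3, and those beside miR499 are numbered 4 to 6. The column headers of controls 4 to 6 carry an added tag of digits that no other library has. Its meaning is not stated, and any difference it marks cannot be told apart from miR499. The series title concerns proliferation and differentiation of these cells, and each miRNA was set against the controls of its own table. No label ties a replicate to an animal or culture of its own, so a p-value here reflects the variation among the libraries of a group, possibly technical in part. Nothing used here states the age, sex, dose of miRNA, sort gate or any poly(A) selection. The last of these bears on every level below, because a transcript without a poly(A) tail is captured poorly by such a selection. Values are RPKM, reads divided by the length of the gene and the total of the library, and bulk RNA cannot tell fewer cells in S phase from less histone RNA per cell.

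The mature miRNAs are shown first, because miRNAs mostly find their targets through the seed, bases 2 to 8, printed in capitals. The labels give no arm, and the 3p arm of miR-184 (chr9:89802263-89802284, minus strand) and the 5p arm of miR-499 (chr2:155622893-155622913, plus strand), both from RefSeq on GRCm38.p6, are the ones used here. They share no seed.
mmu-miR-184-3p: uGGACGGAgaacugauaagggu
mmu-miR-499-5p: uUAAGACUugcagugauguuu
The 7-base complement of the miR-184 seed, TCCGTCC, stood in an annotated GENCODE M21 transcript of 1 of the 66 members (1.52%), against 5.54% of 58797 protein-coding transcripts. That of miR-499, AGTCTTA, stood in 4 members (6.06%), against 9.06% of protein-coding transcripts. All 5 matches lay in 3′ UTRs, on the transcript strand. The shares are a description, counted per gene for members and per transcript for the background, with no allowance for transcript length. Each match also lay past the stem-loop motif of its own annotated transcript. A message that ends at the stem-loop would therefore lack the site. The sites are printed with the match in capitals.
Hist1h1d (miR-184, chr13:23556325-23556331): gctctggaatTCCGTCCtaagaatttt
Hist3h2a (miR-499, chr11:58956219-58956225): cttaacggtgAGTCTTAacagagtgat
Hist1h2ac (miR-499, chr13:23682799-23682805): tagtgcttgcAGTCTTActgatactgg
Hist1h2bh (miR-499, chr13:23542480-23542486): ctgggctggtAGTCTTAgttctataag
Hist2h3c1 (miR-499, chr3:96247560-96247566): ttctaacatcAGTCTTAattcgttttt

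The 3′ stem-loop is the feature that sets these transcripts apart from polyadenylated messages. Its sequence is shown for some members of 4 classes in which the motif was found, with the loop and its stems in capitals. The motif searched was GGNNCTNTTNAGNNCC on the transcript strand only, in all annotated transcripts.
Hist1h1e (H1, chr13:23621782-23621797, minus): ccaaaGGCTCTTTTCAGAGCCacccacaac
Hist1h2ap (H2a, chr13:21833029-21833044, minus): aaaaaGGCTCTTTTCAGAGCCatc
Hist1h2bk (H2b, chr13:22036300-22036315, plus): ccaaaGGCTCTTTTAAGAGCCactaaacca
Hist1h4d (H4, chr13:23581950-23581965, plus): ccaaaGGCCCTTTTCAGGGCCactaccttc
Hist1h4i (H4, chr13:22040966-22040981, minus): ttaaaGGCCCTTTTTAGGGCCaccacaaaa
It was found in 43 of the 66 members (65.2%), against 0.361% of protein-coding transcripts, and in 3 of 5 H1, 11 of 19 H2a, 10 of 17 H2b, 8 of 12 H3 and 11 of 13 H4 genes. These shares describe the annotated transcripts, counted per gene for members and per transcript for the background. Some members without a match have short ones, such as Hist1h2ai and Hist1h2an at 393 bases and Hist1h4k at 312. Others are longer, such as Hist2h2be at 2620 and Hist1h2bc, the most abundant H2b gene, at 1156. A member without a match may thus still have a stem-loop outside its annotation or of another form. The form in Hist1h1e and Hist1h2ap was the commonest, in 26 members, and that in Hist1h4d stood in 7. The annotated transcript ended within 100 bases after the motif in 22 of the 43 members and ran over 500 bases past it in 12, among them Hist1h1e with 1153 further bases and Hist1h4d with 770. An RPKM divides by a gene's length, and that length equalled the GENCODE length in 44 members and was recovered from the values themselves in 22. It was 748 bases in Hist1h1e, short of its annotated transcript of 1930 bases. In Hist3h2a it was 2146 bases, the full annotated length. Levels of members therefore rest on unlike lengths, which need not include a long annotated end.

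Promoters differed by class. For 60 of the 66 members RefSeq gave a window from 250 bases before to 50 bases after its annotated start, which need not be that of transcription. The CCAAT box (CCAAT, both strands), to which the factor NF-Y binds, was in 51 of these 60 windows (85%), against 37.4% of 32851 RefSeq promoters. It was in every H1, H2a, H2b and H3 window and in 3 of 12 H4 windows. The TATA box (TATAAA, both strands) was in 34 windows (56.7%), against 13.6% of all promoters. The octamer (ATTTGCAT, both strands), the site of Oct-1 in H2b promoters, was in 7 of 18 H2a and 5 of 15 H2b windows and in no other class, against 1.74% of all promoters. Windows of divergent H2a and H2b genes can overlap, so the same octamer can count in both classes. It did so in Hist1h2ae with Hist1h2bg and in Hist1h2ah with Hist1h2bk. The 250 bases before the RefSeq start are shown for Hist1h2ap, the most abundant member, and Hist1h4d, the most abundant H4 gene. Matches to these motifs are in capitals. In Hist1h2ap the RefSeq start is the start codon, so the window overlaps the GENCODE transcript, which begins at chr13:21833507. The Hist1h2ap window (chr13:21833476-21833725, minus strand) holds 2 CCAAT boxes forward and 1 reversed and no match to TATAAA. The Hist1h4d window (chr13:23581318-23581567, plus strand) holds 1 reversed CCAAT box and 1 TATAAA.
Hist1h2ap: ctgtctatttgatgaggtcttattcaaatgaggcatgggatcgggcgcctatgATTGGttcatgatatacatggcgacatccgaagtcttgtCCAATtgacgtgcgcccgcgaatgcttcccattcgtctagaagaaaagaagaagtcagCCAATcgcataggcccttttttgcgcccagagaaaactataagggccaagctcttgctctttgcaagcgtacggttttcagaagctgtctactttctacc
Hist1h4d: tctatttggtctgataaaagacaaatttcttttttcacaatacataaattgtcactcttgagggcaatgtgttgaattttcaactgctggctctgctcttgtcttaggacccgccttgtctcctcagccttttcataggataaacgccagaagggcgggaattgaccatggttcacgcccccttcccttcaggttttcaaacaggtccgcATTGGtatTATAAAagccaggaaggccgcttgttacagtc

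**Figure D1:**
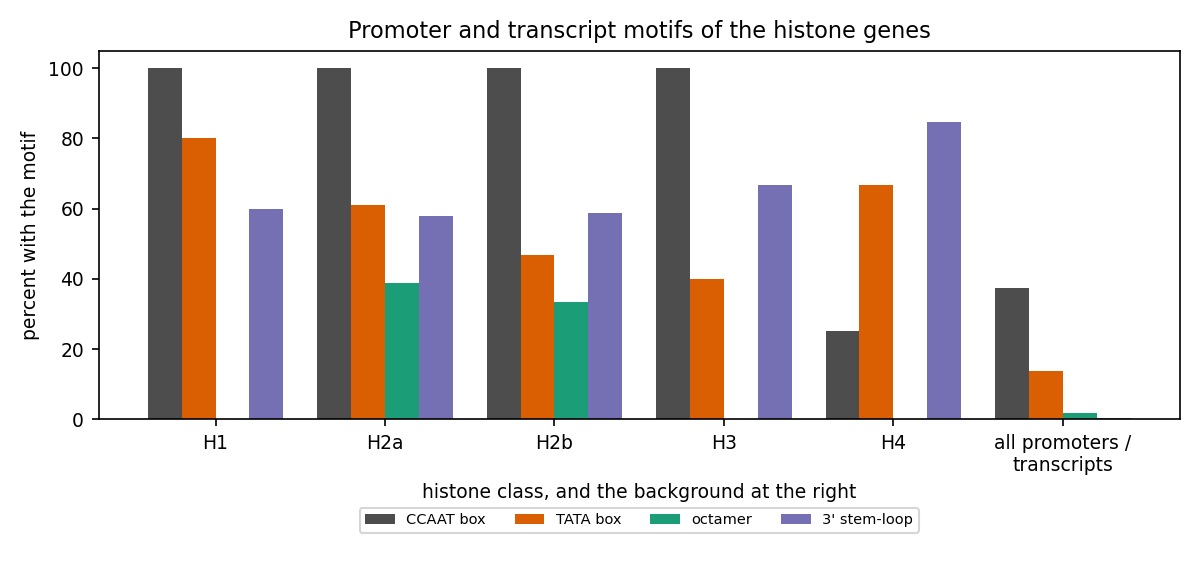
Percent of RefSeq promoter windows with a CCAAT box, a TATA box or an octamer, and percent of members whose annotated transcript holds the 3′ stem-loop motif, by histone class (bars), with the same shares over all promoters and protein-coding transcripts at the right. Some annotated transcripts are short and may stop before the stem-loop. H4 stands apart with the CCAAT box in 25% of its windows, and the octamer appears in H2a (38.9%) and H2b (33.3%) alone among the classes.

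Library totals ran from 31990355 to 46601798 reads, and the members together held 29667 to 80473 reads, 0.0702% to 0.181% of a library. A count of 0 allows up to 3 reads, which in a gene of 400 bases correspond to 0.161 to 0.234 RPKM (counting error only). Of 13 HSPC markers, 12 averaged at least 1 RPKM, and Slamf1 averaged less. Their sum was 700 to 755 RPKM with miR184, against 722 to 839 in controls 1 to 3, and 575 to 583 RPKM with miR499, against 622 to 690 in controls 4 to 6. Neutrophil markers summed to 6729 to 7953 RPKM with miR184, against 6810 to 7859 in controls 1 to 3, and to 4926 to 9503 with miR499, against 5009 to 6205 in controls 4 to 6. Of 8 testis markers none averaged 1 RPKM, and Prm2 and Tnp1 were at 0 in all libraries. Monocyte and macrophage markers summed to 2893 to 3010 RPKM with miR184, against 2967 to 3411 in controls 1 to 3, and to 2443 to 2582 with miR499, against 2984 to 3666 in controls 4 to 6, so that all miR499 libraries lay below their controls. The library miR499 3 stood apart, with a mean correlation of log2 values of 0.960 to the libraries of the other table and of 0.948 to those of its own. It held the neutrophil sum of 9503 RPKM, and its Kit level was 34.3 RPKM, against 14.1 and 10.7 in miR499 1 and 2 and 8.17 to 9.24 in controls 4 to 6. Its erythroid markers summed to 33.98 RPKM, against 6.99 to 7.47 in miR499 1 and 2 and 7.11 to 11.7 in controls 4 to 6, and its stromal and endothelial markers to 13.2 RPKM, against 4.29 to 4.55 and 4.50 to 5.41. Ribosomal RNA entries were higher in every miR499 library than in controls 4 to 6. Rn18s-rs5 stood at 63.1, 43.6 and 114 RPKM in miR499 1 to 3, against 26.4 to 30.98, and Gm26917 at 117, 75.1 and 141, against 40.5 to 47.0. Malat1, a nuclear RNA, stood at 563, 644 and 149 RPKM, against 325 to 494, and Lars2 at 206, 96.1 and 378, against 81.4 to 92.2. In the miR184 table Rn18s-rs5 stood at 85.7 to 97.7 RPKM with miR184, against 66.7 to 87.5 in controls 1 to 3, and Gm26917 at 119 to 138, against 86.9 to 106. In miR184 3, 13675 genes were above 0, against 16702 to 17136 in the rest of that table. Its mean correlation to the libraries of its own table was 0.976, against 0.989 to 0.991 for the rest. Of the 66 members, 55 were above 0 in miR184 3, against 58 to 64 in the rest of that table. Low or 0 values of members in miR184 3 stand beside this wider loss. Results that rest on miR499 3 are therefore given with and without it, a choice made after seeing the data, and the part of these differences in the histone values was not tested.

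A few members held nearly all of the signal. Over the 12 libraries, 10 members averaged 10 RPKM or more, 32 lay between 1 and 10, and 24 lay under 1, with a median of 1.73 RPKM. Hist1h2ap, an H2a gene in cluster 1 (chr13:21833026-21833507, minus strand), averaged 1999 RPKM and ranked between 9 and 26 among all genes of a library. It took 82.5% to 88.8% of the summed RPKM of the members and 78.0% to 86.6% of their reads. Its transcript shares 93.1% of its 50-base windows with other members, all of these with Hist1h2ao, which averaged 5.81 RPKM. The next members were Hist1h2bc, an H2b gene, at 41.0 RPKM, Hist1h2ae at 40.6, Hist1h1e at 23.8 and Hist1h4d at 23.6. Hist1h1e encodes a main somatic linker histone, named H1f4 in RefSeq. The highest H3 gene, Hist1h3d, averaged 6.88 RPKM.

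Reads of near-identical members may be shared or split, since no source used here states the counting tool or its rule for reads with several origins. Of the 66 members, 60 shared at least 1 window of 50 bases with another member, and 31 shared at least 50 percent of their windows. The median share was 67.6% in H2a, 57.2% in H3, 45.3% in H2b, 39.5% in H4 and 2.21% in H1, the lowest. Among H1 genes Hist1h1e shares 32.0%, mostly with Hist1h2be, whose annotated transcript overlaps it on the same strand. Hist1h2ap, Hist1h2ai (84.6% shared) and Hist1h3i (87.6%) are therefore uncertain as single genes. Hist1h1b, Hist1h1a and Hist2h2be share no window, and Hist1h4d shares 10.2%. Hist2h2aa2 shares all of its windows, 100%, with Hist2h2aa1 beside it on chromosome 3. It was listed at 0.791, 0.674 and 2.64 RPKM in miR184 1 to 3 (18, 14 and 60 reads), against 0 reads in each of controls 1 to 3 and in all 6 libraries of the other table. Hist2h2aa1 held 6.93, 7.03 and 7.29 RPKM with miR184, against 6.85, 7.08 and 7.86 in controls 1 to 3. Hist2h2aa2 entered the set through the miR184 libraries alone and was too low to be tested.

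**Figure D2:**
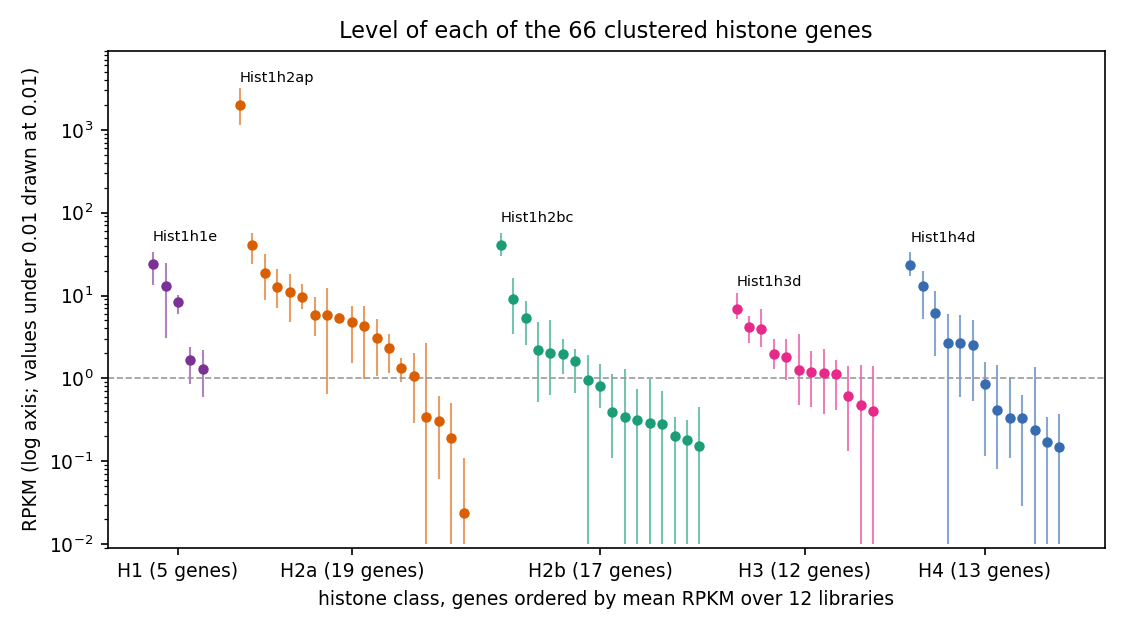
Mean RPKM over 12 libraries of each member (points, log axis) with its lowest to highest library (lines), by class and in order of the mean; the dashed line marks 1 RPKM. Hist1h2ap at 1999 RPKM stands far above all others, and Hist1h2bc follows at 41.0.

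Many members lie as divergent pairs, an H2a and an H2b gene that start back to back. There were 11 such pairs among the members, with 175 to 301 bases between the annotated ends. The H2a gene had the higher mean RPKM in 10 of the 11, for example Hist1h2ae at 40.6 beside Hist1h2bg at 1.98 RPKM, and Hist1h2ap at 1999 beside Hist1h2br at 0.151. The exception was Hist1h2ac at 1.08 beside Hist1h2bc at 41.0 RPKM. With miR184, 4 pairs had both genes tested and 3 of them had changes of the same sign. With miR499 these numbers were 5 and 2.

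Summed over all members, the histone RPKM was 1694, 1483 and 1375 in miR184 1 to 3, against 1896, 1626 and 1593 in controls 1 to 3. The groups overlapped, with means of 1517 ± 162 and 1705 ± 166 RPKM (SD, n = 3 each) and a log2 ratio of -0.17, which was -0.25 without miR184 1, -0.10 without miR184 3 and -0.0853 without control 1. In the other table the sum was 3660, 3141 and 1653 RPKM in miR499 1 to 3, against 3637, 2904 and 3176 in controls 4 to 6. Only miR499 3 lay below its controls, so that the log2 ratio was -0.20 with it and 0.07 without it. The sums of the miR499 table, other than miR499 3, lay above all sums of the miR184 table, and H2afz, a variant histone outside the clusters, showed the same split, at 1075 RPKM in miR499 3, against 1931 and 2207 in miR499 1 and 2 and 1936 to 2087 in controls 4 to 6. The tables were not compared by a test.

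Class by class, miR184 libraries held less H1 and H4 than most of their controls. H1 summed to 47.3, 29.9 and 29.7 RPKM in miR184 1 to 3, against 53.3, 51.2 and 40.0 in controls 1 to 3, a log2 ratio of -0.44 that was -0.70 without miR184 1. H4 summed to 42.3, 38.7 and 30.2 RPKM with miR184, against 55.8, 44.0 and 40.9 in the controls, a log2 ratio of -0.34 that was -0.20 without control 1 and -0.21 without miR184 3. In both classes miR184 1 lay within the range of the controls and the other two libraries below it. Without Hist1h2ap, H2a summed to 110, 83.4 and 87.2 RPKM with miR184, against 133, 113 and 109 in the controls, again with miR184 1 alone inside the range of the controls. H2b stood at 50.4, 49.3 and 60.1 RPKM, against 49.9, 54.2 and 46.0, and H3 at 21.8, 28.6 and 29.4 RPKM, against 26.3, 21.4 and 20.95. The groups overlapped in all 5 classes.

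With miR499, H1 summed to 67.8, 66.2 and 31.4 RPKM in miR499 1 to 3, against 53.0, 50.7 and 56.2 in controls 4 to 6. H3 stood at 30.1, 28.5 and 19.7 RPKM with miR499, against 28.0, 22.2 and 23.4. Libraries 1 and 2 lay above all controls in these classes and library 3 below them, which gave log2 ratios of 0.05 (H1) and 0.09 (H3) with library 3 and 0.33 and 0.26 without it. H4 stood at 74.9, 63.1 and 53.0 RPKM, against 68.4, 64.7 and 62.8, and H2b at 90.5, 85.4 and 57.9, against 87.8, 85.0 and 91.8. No p-value is given for these sums.

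**Figure D3:**
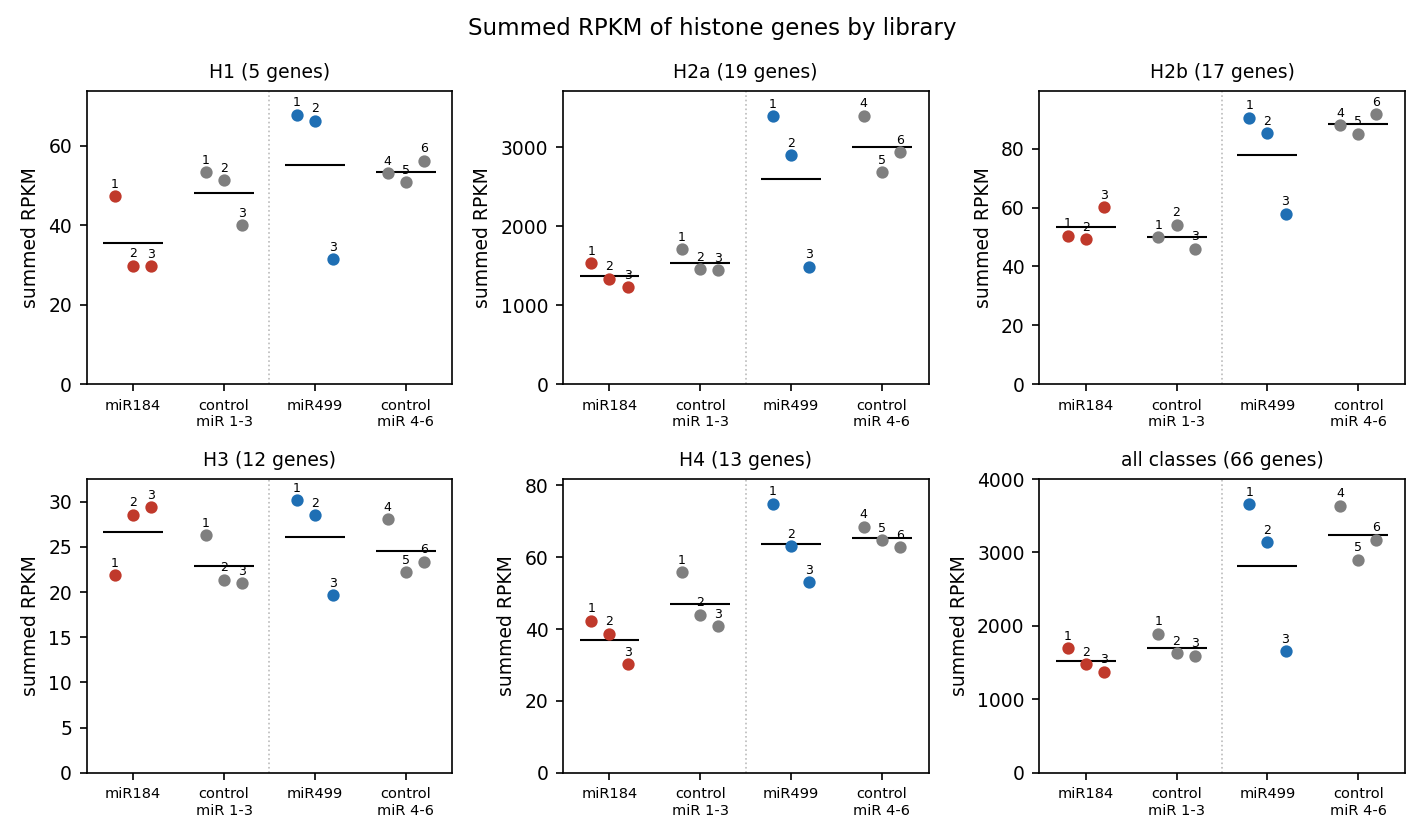
Summed RPKM of each histone class and of all members in every library (points, numbered by replicate), with the mean of each group as a line; each miRNA stands left of its own controls, and the vertical line parts the tables. miR499 3 lies below its controls in every panel, at 1653 RPKM over all members.

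The effect of miR184 on single histone genes was tested with limma on log2(RPKM + 1), and a gene was called at a Benjamini-Hochberg adjusted p under 0.05 over all genes tested. Of the 40 members with a mean of at least 1 RPKM in the table, 0 were called, as were 0 of 10372 genes (0%). The median log2 change of the tested members was -0.07, with 24 lower and 16 higher, against a median of 0.0022 over all genes, of which 49.4% were lower. At an unadjusted p under 0.05 stood 7 members (17.5%), 5 lower and 2 higher, against 4.58% of all genes, 0.954% lower and 3.63% higher. By voom on recovered reads 0 members were called and 2 had an unadjusted p under 0.05. The share over all genes by voom is not given here, so that count has no background. With a library left out, the number of members under 0.05 was 2 (5%) without control 1, against 4.72% of all genes in the same fit. It was 4 (10%) without control 2, against 2.55%, and 6 (15%) without control 3, against 2.87%. It was 13 (32.5%) without miR184 1, against 5.82%, 4 (10%) without miR184 2, against 5.38%, and 7 (17.5%) without miR184 3, against 6.96%. Without miR184 3 the median of the members was -0.03, with 22 of 40 lower, against 47.6% of all genes. The miR184 and control ranges did not overlap for 6 of the 40 members (15%), against 11.7% of all genes. Of these 4 were lower, against 4.41% of all genes, and 2 were higher, against 7.3%.

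Among H1 genes, 4 of 5 had a negative log2 change with miR184. Hist1h1e held 24.3, 13.4 and 16.3 RPKM in miR184 1 to 3, against 33.6, 29.2 and 22.8 in controls 1 to 3. miR184 1 lay above control 3, and the other two libraries lay below all controls. The means were 18.0 ± 5.65 and 28.5 ± 5.41 RPKM (SD, n = 3 each), with a log2 change of -0.66 ± 0.22 (SE) and a limma adjusted p of 0.793. Hist1h1b, a linker histone linked to proliferating cells and named H1f5 in RefSeq, held 11.2, 6.81 and 3.06 RPKM, against 8.75, 11.4 and 7.87, a log2 change of -0.49 ± 0.37 that was -0.07 without miR184 3 and -0.86 without miR184 1. Hist1h1c (H1f2) held 9.19, 8.23 and 5.98 RPKM, against 7.26, 7.29 and 6.29, with overlapping groups. Hist1h1a (H1f1) was low, at 1.12, 0.594 and 2.21 RPKM, against 1.91, 0.889 and 1.83. Hist1h1d, the only member with a miR-184 seed match, past its stem-loop, held 1.59, 0.855 and 2.12 RPKM with miR184, against 1.85, 2.39 and 1.18. Its log2 change of -0.16 ± 0.23 was smaller than its error.

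Of 14 tested H2a genes, 10 had a negative log2 change, from -0.99 in Hist1h2ad to 0.32 in Hist1h2ai. Hist1h2ad held 2.80, 4.50 and 0.652 RPKM with miR184, against 6.35, 3.60 and 7.01, and its change was -0.50 without miR184 3, where Hist2h2ac was lowest at -0.72. Hist1h2ae held 39.7, 23.7 and 29.4 RPKM with miR184, against 57.3, 46.5 and 45.3 in controls 1 to 3, and all 3 miR184 libraries lay below all 3 controls. Its log2 change of -0.69 ± 0.18 (SE) had the smallest p of the members, with a limma adjusted p of 0.528. Hist2h2ac, in cluster 2, also did not overlap, at 3.92, 0.978 and 2.50 RPKM, against 4.17, 4.22 and 3.99. Hist1h2ap, which carries most histone reads, held 1422, 1253 and 1138 RPKM with miR184, against 1578, 1342 and 1337 in controls. The groups of Hist1h2ap overlapped, and its log2 change was -0.16 ± 0.10 (SE). Hist1h2ai stood at 16.9, 11.6 and 13.8 RPKM, against 11.6, 13.01 and 8.85.

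Of 7 tested H2b genes, 4 had a positive change, with a median of 0.09. Without miR184 3 the number was 3, with a median of -0.08. Hist1h2bm held 1.03, 1.27 and 1.71 RPKM with miR184 (17, 19 and 28 reads), against 0.732, 0.979 and 0.725 in controls 1 to 3 (13, 17 and 12 reads), a log2 change of 0.36 ± 0.14 (SE). Hist1h2bk held 3.26, 4.33 and 3.66 RPKM, against 3.11, 3.04 and 2.52, a log2 change of 0.29 ± 0.12. For both genes every miR184 library lay above every control, and the limma adjusted p was 0.827 for each. Hist1h2bc, the most abundant H2b gene, held 32.4, 33.4 and 38.5 RPKM, against 30.5, 37.6 and 29.7, and Hist1h2bj 5.16, 3.46 and 7.27, against 4.87, 4.69 and 4.08, both with overlapping groups. Hist2h2be, which has a long annotated 3′ end and no shared window, held 1.91, 1.79 and 2.22 RPKM, against 2.27, 1.99 and 1.99.

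Of 8 tested H3 genes, 6 had a positive log2 change with miR184, and of 6 tested H4 genes 5 had a negative one. The difference between these classes was not tested, and without miR184 3 the counts were 7 of 8 and 4 of 6. The H3 changes had a median of 0.07, and the largest was 0.49 ± 0.30 (SE) in Hist1h3f. Without miR184 3 the median was 0.12, the change of Hist1h3f was 0.20, and the largest was 0.24 in Hist1h3g. Hist1h3d held 6.79, 7.77 and 10.7 RPKM with miR184, against 7.66, 7.41 and 5.84. Hist1h3i held 3.498, 5.69 and 6.89 RPKM, against 3.76, 3.74 and 3.53, with miR184 1 below all controls and the other two libraries above them. Hist1h3e stood at 3.30, 5.45 and 3.22 RPKM, against 4.77, 3.25 and 3.003. With all libraries no H3 gene had an unadjusted limma p under 0.05. Without miR184 3, 1 of the 8 did, against 6.96% of all genes.

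The H4 changes with miR184 had a median of -0.35, and of -0.13 without miR184 3. Hist1h4d, whose stem-loop and promoter are shown above, held 22.1, 18.8 and 17.1 RPKM with miR184, against 33.3, 25.1 and 20.7 in controls 1 to 3, a log2 change of -0.41 ± 0.17 (SE). Only miR184 1 lay within the range of the controls. Hist1h4c held 2.94, 2.96 and 1.88 RPKM, against 4.51, 3.49995 and 3.21, without overlap, and its log2 change was also -0.41 ± 0.17. The changes were -0.24 in Hist1h4d without control 1 and -0.25 in Hist1h4c without miR184 3. Both genes had a limma adjusted p of 0.827. Hist1h4m was listed at 1.62, 1.39 and 0 RPKM, against 1.81, 1.97 and 2.18. Hist1h4i stood at 10.6, 9.55 and 5.17 RPKM with miR184, against 10.8, 9.54 and 10.1, and Hist1h4h at 1.47, 1.67 and 1.33, against 1.68, 0.603 and 1.66.

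**Figure D4:**
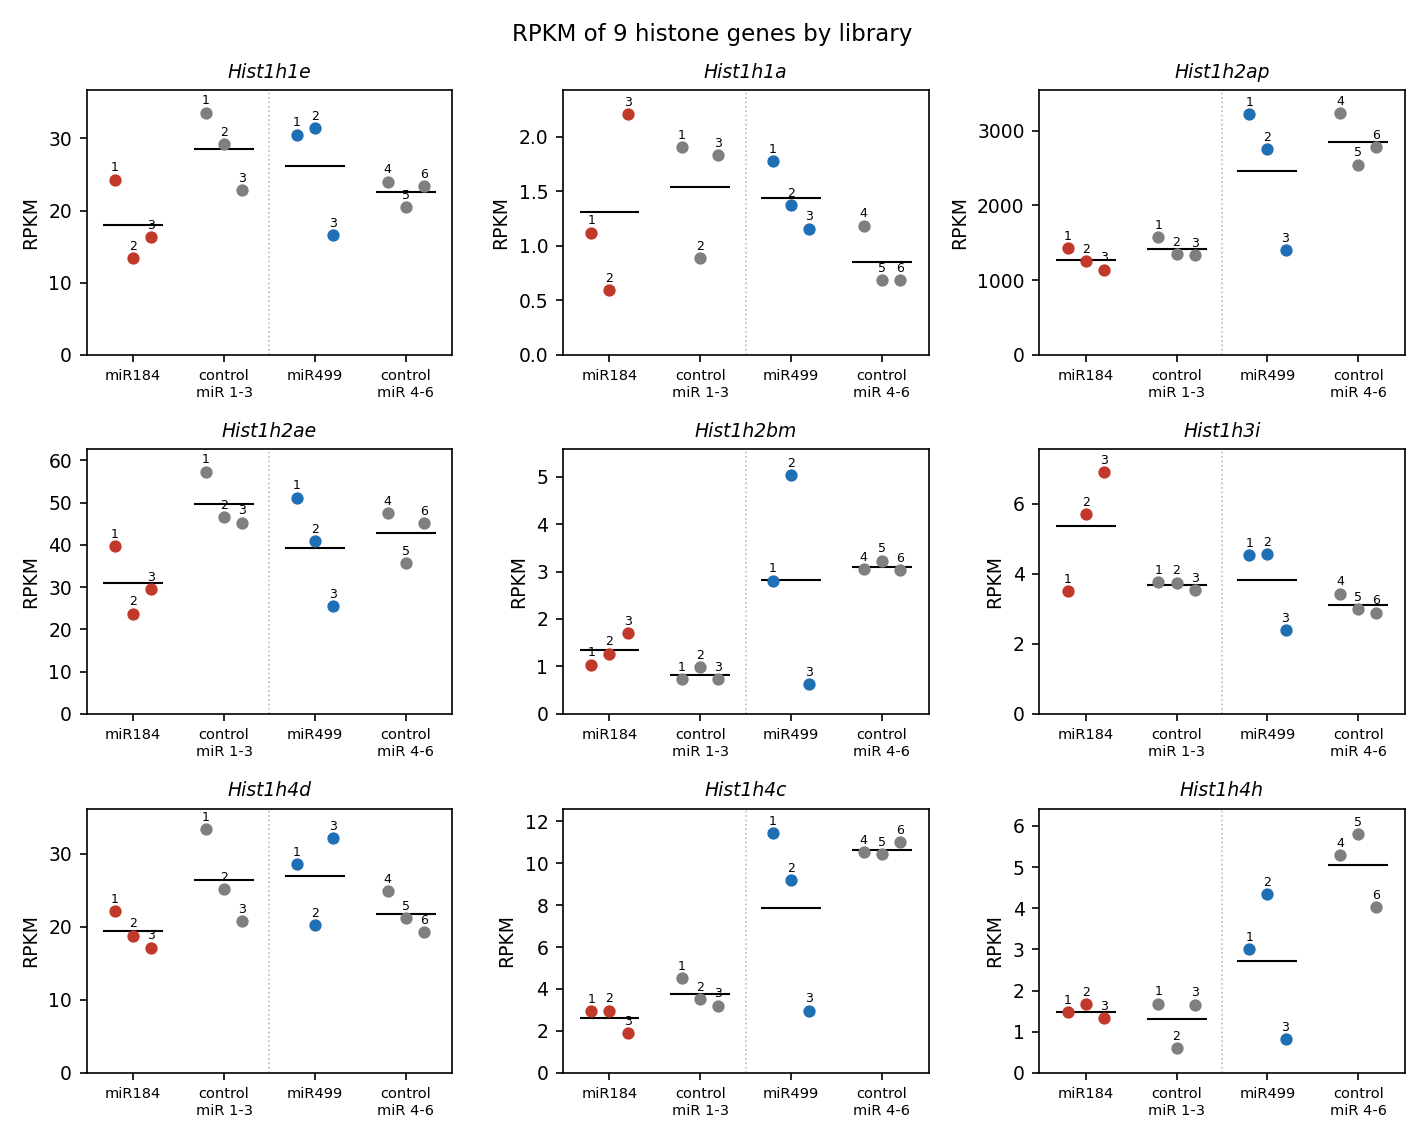
RPKM of 9 members in every library (points, numbered by replicate), with the group mean as a line and each miRNA left of its own controls. Hist1h2ae with miR184 lies between 23.7 and 39.7 RPKM, below all of controls 1 to 3, and miR499 3 lies apart from miR499 1 and 2 in Hist1h2ap, Hist1h2bm and Hist1h4c.

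With miR499, 0 of 43 tested members were called by limma, as were 0 of 9815 genes (0%), and 0 members were called by voom. An unadjusted p under 0.05 was reached by 1 member (2.33%) by limma and by 0 members by voom, against 10.1% of all genes by limma. The ranges of miR499 and its controls overlapped for every tested member, while they did not overlap for 24.2% of all genes. The median log2 change of the members was -0.10, with 29 lower and 14 higher, against a median of -0.01 over all genes, of which 50.9% were lower. Without miR499 3 this turned, to 31 higher and 12 lower with a median of 0.09, against a median of -0.06 over all genes, of which 58.7% were lower. In that fit 5 members (11.6%) had an unadjusted p under 0.05, against 36.3% of all genes, and 2 members were called (4.65%), against 17.1% of all genes, of which 3.47% were called higher and 13.7% lower. Both called members, Hist1h1e and Hist1h3i, rose in that fit. The ranges of miR499 1 and 2 lay above all controls for 5 members (11.6%), Hist1h1e, Hist1h1b, Hist1h1a, Hist1h3i and Hist2h3b, against 17.9% of all genes above and 52.0% above or below. When the remaining libraries were also scaled by median ratios, 3 members were called higher (6.98%), against 14% of all genes called and 4.75% called higher, the third being Hist1h1a. The log2 change was then negative for 8 of the 43 members, against 54.4% of all genes.

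Among H1 genes, Hist1h1e held 30.5, 31.4 and 16.6 RPKM in miR499 1 to 3, against 23.99, 20.4 and 23.4 in controls 4 to 6. The log2 change of Hist1h1e was 0.15 ± 0.25 (SE; limma adjusted p = 0.773) with all libraries and 0.44 ± 0.09 (adjusted p = 0.0156) without miR499 3. Hist1h1b held 24.5, 21.7 and 4.22 RPKM, against 16.9, 19.6 and 20.2, with a log2 change of -0.46 ± 0.57 with library 3 and 0.28 ± 0.10 without it. Hist1h1a stood at 1.78, 1.37 and 1.16 RPKM with miR499 (49, 39 and 31 reads), against 1.18, 0.684 and 0.682 in controls 4 to 6 (34, 20 and 14 reads). It had the smallest p of the members, with a log2 change of 0.40 ± 0.17 and a limma adjusted p of 0.491, and only miR499 3 lay within the range of the controls. Hist1h1c held 8.68, 10.1 and 8.42 RPKM, against 9.51, 8.16 and 10.1. Without miR499 3 all 5 H1 genes had a positive change.

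Among core histone genes, Hist1h2ap held 3216, 2746 and 1400.2 RPKM in miR499 1 to 3, against 3231, 2542 and 2781 in controls 4 to 6. The first 2 libraries lay within the range of the controls, and miR499 3 lay below it. Hist1h2ae held 51.1, 40.8 and 25.5 RPKM, against 47.4, 35.6 and 45.1, and Hist1h2ai 30.5, 22.9 and 13.8, against 31.7, 25.1 and 26.7. Of 15 tested H2a genes 12 had a negative change with all libraries, and 12 a positive one without miR499 3.

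Hist1h2bc held 52.8, 44.6 and 38.5 RPKM with miR499, against 49.7, 48.1 and 56.5 in controls 4 to 6. Hist1h2bj held 14.2, 15.6 and 5.32 RPKM, against 16.4, 15.3 and 13.8, and Hist1h2bk 8.65, 8.64 and 4.62, against 6.81, 7.47 and 8.67. In each of these H2b genes miR499 3 was the lowest of the 6 libraries. Hist1h2bm held 2.81, 5.04 and 0.628 RPKM, against 3.05, 3.23 and 3.04, so that the highest and the lowest value of its table both belonged to miR499. Hist2h2be had its highest value in miR499 3, at 1.14, 1.38 and 1.84 RPKM, against 0.657, 1.22 and 0.978, with a log2 change of 0.33 ± 0.17 (SE).

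Hist1h3i held 4.53, 4.56 and 2.39 RPKM with miR499, against 3.43, 2.99 and 2.89 in controls 4 to 6. Its log2 change was 0.20 ± 0.22 (SE; limma adjusted p = 0.696) with all libraries and 0.44 ± 0.11 (adjusted p = 0.0271) without miR499 3. Hist1h3d stood at 6.98, 5.69 and 5.21 RPKM, against 7.70, 5.21 and 5.58, and Hist1h3e at 4.56, 4.81 and 2.69, against 5.61, 4.18 and 5.53. Of 7 tested H4 genes 6 had a negative log2 change with all libraries and 4 without miR499 3, where the median was -0.0017 in place of -0.19. Hist1h4d, the exception with all libraries, held 28.5, 20.2 and 32.1 RPKM, against 24.8, 21.2 and 19.2, and it was 1 of 3 tested members, beside Hist1h2bg and Hist2h2be, with their highest value in miR499 3. Hist1h4h held 3.0003, 4.35 and 0.809 RPKM, against 5.29, 5.80 and 4.03, with the most negative change of the members, -0.83 ± 0.39 (SE; limma adjusted p = 0.495) with all libraries and -0.37 ± 0.16 without miR499 3. Hist1h4c held 11.4, 9.21 and 2.97 RPKM, against 10.5, 10.4 and 11.0002, and Hist1h4i 19.8, 18.2 and 11.5, against 16.4, 16.004 and 18.4.

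Of the 4 members with a miR-499 seed match, each past its stem-loop, Hist3h2a and Hist1h2ac were high enough to be tested. Hist3h2a held 4.95, 4.75 and 4.68 RPKM with miR499, against 4.85, 6.14 and 6.02 in controls 4 to 6, a log2 change of -0.20 ± 0.15 (SE). Hist1h2ac held 2.004, 1.09 and 1.01 RPKM, against 1.55, 1.52 and 1.05, a log2 change of -0.02 ± 0.20. Hist1h2bh and Hist2h3c1 stayed under 1 RPKM in all 6 libraries, at 0.420, 0.931 and 0.370 RPKM with miR499, against 0.173, 0.453 and 0.242, and at 0.499, 0.608 and 0.131, against 0.221, 0.615 and 0.429. The groups overlapped for each of these members.

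**Figure D5:**
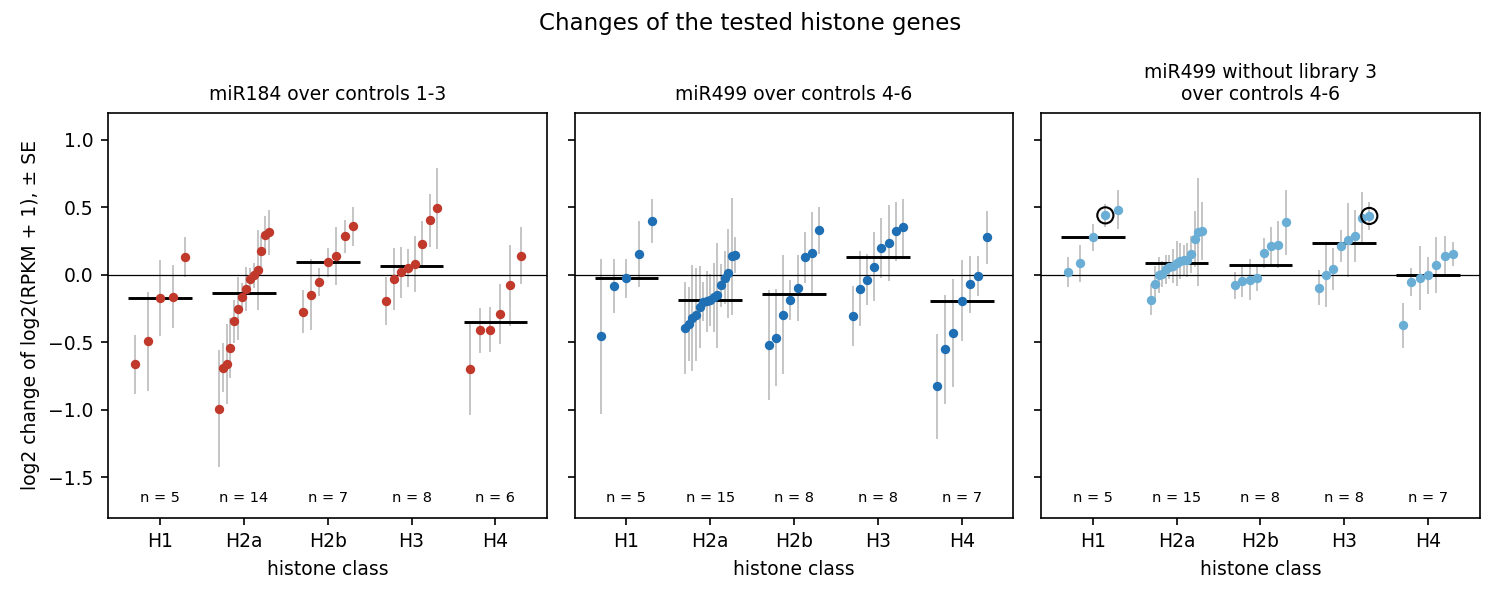
Log2 change of each tested member on the log2(RPKM + 1) scale, with its SE, by class, for miR184, for miR499 and for miR499 without library 3; black lines are class medians and rings mark adjusted p under 0.05. No ring appears in the first 2 panels, and 2 (Hist1h1e and Hist1h3i) appear in the third, where the H1 median is 0.28.

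To ask whether the miRNAs differed, the change with miR184 was set against that with miR499 in a limma fit of all 12 libraries. Of 42 tested members 0 were called, as were 0 of 10214 genes (0%), and 2 members (4.76%) had an unadjusted p under 0.05, against 9.11% of all genes. These were Hist1h4d, with a difference in log2 change of -0.69 ± 0.28 (SE; adjusted p = 0.538), and Hist1h1e, with -0.82 ± 0.36 (adjusted p = 0.538). Without miR499 3, Hist1h1e was called, at -1.10 ± 0.27 with an adjusted p of 0.0352, against 7.72% of all genes called and 0.627% called lower. In that fit 4 members (9.52%) had an unadjusted p under 0.05, against 25.6% of all genes, and 27 of the 42 had a negative difference, against 42.5% of all genes. With all libraries 21 of 42 were negative, against 50.5%. A z test on the separate fits called 0 members, and 4 had an unadjusted p under 0.05. For the z test the share over all genes is not given here, so the count of 4 has no background.

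Genes that act on histone messages or take up their products were read from lists chosen with earlier results known. Of 28 genes of histone transcription and 3′ processing 25 were tested in each table, and 0 were called with either miRNA. Their median log2 changes were -0.0021 with miR184 and -0.03 with miR499, against 0.0022 and -0.01 over all genes. Slbp, which binds the stem-loop, averaged 53.1 ± 1.55 RPKM with miR184, against 53.7 ± 0.795 in controls 1 to 3, and 51.9 ± 8.39 with miR499, against 67.4 ± 3.87 in controls 4 to 6 (SD, n = 3 each). All 3 miR499 libraries lay below the controls in Slbp, with a log2 change of -0.38 ± 0.15 (SE; limma adjusted p = 0.491). Cstf2 and Ncbp2 had the smallest p of the list with miR184, at log2 changes of -0.19 ± 0.10 and 0.17 ± 0.09 (SE). Npat averaged 6.58 ± 1.03 RPKM with miR184, against 7.26 ± 0.671, and 3.51 ± 0.792 with miR499, against 2.48 ± 0.313. Without miR499 3, 1 of the 25 genes was called higher and 3 lower, against 3.47% and 13.7% of all genes, the first being Yy1, a transcription factor that also binds histone genes.

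Of 26 histone chaperone and nucleosome assembly genes 0 were called with either miRNA. Chaf1a, the large subunit of the chromatin assembly factor CAF-1 that loads H3 and H4 behind the replication fork, averaged 31.7 ± 3.15 RPKM with miR184, against 22.7 ± 0.915 in controls 1 to 3 (SD, n = 3 each). The groups did not overlap, and the log2 change was 0.46 ± 0.08 (SE; limma adjusted p = 0.385). Cdan1, a partner of the chaperone Asf1, had the next smallest p, at a log2 change of 0.43 ± 0.22 with overlapping groups. Nasp, the carrier of free H3 and H4, stood at 12.6 ± 0.371 RPKM, against 12.6 ± 0.361. With miR499, Rbbp7, a histone-binding subunit of several chromatin complexes, averaged 149 ± 18.8 RPKM, against 207 ± 7.49, and Dnajc9, a histone co-chaperone, 113 ± 17.7, against 151 ± 5.56. Both lay below all controls, with a limma adjusted p of 0.491 each. Without miR499 3, 6 of the 26 genes were called, all lower, against 13.7% of all genes called lower.

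Variant histones are made throughout the cell cycle, and of the 15 on the list 10 reached a mean of 1 RPKM in the miR184 table and 11 in that of miR499. H2afz averaged 874 ± 21.6 RPKM with miR184, against 865 ± 50.1 in controls 1 to 3 (SD, n = 3 each). H3f3b, which encodes H3.3 like H3f3a, averaged 544 ± 8.48 RPKM with miR184, against 598 ± 22.5, and H3f3a 218 ± 6.58, against 229 ± 11.6. All miR184 libraries lay below the controls in H3f3b, with a log2 change of -0.14 ± 0.05 (SE; limma adjusted p = 0.827). H1f0, the linker histone of differentiated cells, stood at 30.2 ± 4.62 RPKM with miR184, against 27.5 ± 1.87, and at 25.7 ± 3.30 with miR499, against 30.6 ± 1.42. Cenpa, the H3 variant of centromeres, averaged 57.2 ± 4.48 RPKM with miR184, against 62.9 ± 4.30. With miR499, H3f3b averaged 854 ± 259 RPKM, against 1169 ± 44.1 in controls 4 to 6, and all miR499 libraries lay below the controls. The log2 change of H3f3b was -0.50 ± 0.25 (SE), and -0.24 without miR499 3. H3f3a averaged 349 ± 86.9 RPKM with miR499, against 382 ± 24.3, and H2afz 1738 ± 591, against 2006 ± 76.2, with library 3 the lowest in both. Of 11 variant genes tested with miR499, 10 had a negative change, against 50.9% of all genes, with a median of -0.23, against -0.01. Without miR499 3 the number was 6, against 58.7% of all genes, and the median -0.09, against -0.06. Of the variant genes tested with either miRNA 0 were called. Without miR499 3 a single one was called, lower with miR499 (1 of 11), against 13.7% of all genes called lower.

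The list of S phase and replication genes held 32 genes, all tested, of which 0 were called with either miRNA. Their median log2 changes were 0.0010 with miR184 and -0.12 with miR499, against 0.0022 and -0.01 over all genes. Pcna, the sliding clamp of the replication fork, averaged 134 ± 1.92 RPKM with miR184, against 138 ± 4.28 in controls 1 to 3, and 191 ± 47.0 with miR499, against 221 ± 11.9 in controls 4 to 6 (SD, n = 3 each). Pcna stood at 214, 221 and 136 RPKM in miR499 1 to 3, so that library 3 alone was low, and its log2 change was -0.24 with all libraries and -0.02 without miR499 3. With miR499, Ccne2, a cyclin E that activates Npat through Cdk2, averaged 11.5 ± 0.901 RPKM, against 16.7 ± 0.366, and Rrm2, a subunit of ribonucleotide reductase, 127 ± 14.7, against 160 ± 4.65. Both lay below all controls. Without miR499 3, 13 of the 32 genes were called lower and 0 higher, against 13.7% of all genes called lower, while 0 histone members were called lower in the same fit. With miR184, Ccne1, the other cyclin E, averaged 9.004 ± 0.968 RPKM, against 7.24 ± 0.664, without overlap and with a limma adjusted p of 0.827. Gins1, of the replicative helicase, stood at 27.1 ± 4.73 RPKM, against 22.7 ± 1.15.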

How the data were processed

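Total RNA of sorted bone marrow cells was extracted with a PicoPure kit and sequenced after standard Illumina library preparation, per the labels' protocols. The authors deposited 2 tables of RPKM, each with 3 libraries of a miRNA and 3 of its controls, per the file headers. Coordinates are those of mm10, named in the submitters' processing notes. How reads were aligned and counted, and whether strand was used, is not given in the sources used here. Near-identical or overlapping histone genes may therefore share reads. Unused columns of per-sample values numbered 0.

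Library totals and reads per gene were recovered from the steps of the RPKM values, and 100% of values above 0 came out whole within 0.01 reads. Positions and transcripts came from GENCODE M21 on GRCm38, and sequences of miRNAs and promoters from RefSeq on GRCm38.p6, with promoters matched for 60 of 66 members.

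Libraries of a miRNA were set against the controls in the same table by limma 3.58.1 in R 4.3.3, with the trend option, on log2(RPKM + 1), over genes with a mean of at least 1 RPKM in the 6 libraries. Genes were called at a Benjamini-Hochberg adjusted p under 0.05 over all genes tested, two-sided. Changes on this scale understate those of low genes. With 3 against 3 libraries, an exact permutation test cannot pass, so single genes rest on the pooled spread of limma. Sums over classes carry no p. The test was also run on simulated counts with the same spread for every gene and no outlying library. That setting does not represent miR499 3 or miR184 3. Alternatives were another pseudocount (0.1), no filter, median-ratio scaling, voom on recovered reads, a joint fit of the 12 libraries, a replicate block and leaving out each library in turn.

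The members and gene lists were chosen with earlier results of these data known. Members with a value in every library are, per class, the 3 highest, in each comparison the 3 with the smallest p, the 2 with the smallest p for the difference, and any called. Others were named for a seed match, for standing nearest the rule or for a range given in the text. From each list the 2 genes with the smallest p are named, and Npat, Slbp, Nasp, H2afz, H3f3a, H3f3b, H1f0 and Pcna. Other steps ran in Python 3.11.15 (pandas 2.3.3, numpy 2.4.6, matplotlib 3.10.9).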

Additional observations from a re-analysis of the deposited data

Results flagged for a closer look

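The summed RPKM of H1 in the 6 control libraries held a value far from the others. It was 53.3, 51.2 and 40.0 RPKM in controls 1 to 3 and 53.0, 50.7 and 56.2 in controls 4 to 6, and the gap of control 3 to its nearest neighbour was 0.663 of the whole range, above Dixon's critical value for 6 values. Of 25 values checked this was the only one so marked, and chance marks about 1 group in 20.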

How the results depend on the processing

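With all libraries, 0 members were called with miR184 or miR499 under a pseudocount of 0.1, no filter, median-ratio scaling, voom on recovered reads or a joint fit of 12 libraries, and 0 for the difference under a pseudocount of 0.1, median-ratio scaling or a z test on the separate fits. With each library left out in turn, the number called was 0 to 0 for miR184, 0 to 2 for miR499 and 0 to 1 for the difference, and the calls came without miR499 3 alone. Without miR499 3 and with median-ratio scaling, added after seeing the data, 3 members were called. The median log2 change of the members ran from -0.11 to -0.03 (miR184) and from -0.23 to 0.09 (miR499). Some single log2 changes turned in sign with 1 library left out. With miR184 these ran from -0.10 to 0.27 in Hist1h4h, -0.12 to 0.25 in Hist1h3e, -0.44 to 0.0634 in Hist1h1a and -0.0788 to 0.37 in Hist1h2bj. With miR499 they ran from -0.14 to 0.11 in Hist1h3d, -0.10 to 0.0345 in Hist1h1c, -0.87 to 0.28 in Hist1h1b, -0.53 to 0.0670 in Hist1h2ap, -0.38 to 0.11 in Hist1h2ae, -0.23 to 0.16 in Hist1h2bk, -0.21 to 0.16 in Hist1h4i and -0.72 to 0.23 in Hist1h2bm. Without miR499 3 and with median-ratio scaling, the log2 changes that turned were 0.31 in Hist1h1b, 0.0576 in Hist1h1c, 0.10 in Hist1h2ap, 0.14 in Hist1h2ae, 0.0136 in Hist1h2bj, 0.20 in Hist1h2bk, 0.0751 in Hist1h3d, 0.19 in Hist1h4i and 0.26 in Hist1h2bm. The cause was not tested. The replicate numbers of the miR184 table showed no clear pairing of the libraries. Same-numbered libraries deviated with correlations of 0.06, -0.05 and -0.03, against -0.11 to 0.15 for other pairs. With 3 libraries in a group, such values cannot tell whether the libraries were paired by design. With a replicate block 0 members were called and 8 had an unadjusted p under 0.05, against 7 without it. The share over all genes with the block is not given here. No paired analysis was possible because, for miR499, libraries carry the numbers 1 to 3 and their controls 4 to 6. Members under 1 RPKM, 24 of 66 over the 12 libraries, rest on few reads.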
